A study of Canis lupus familiaris with 12 samples.

Results

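CTBS and 8 other genes of lysosomal glycosidases (HEXA, GLA, GLB1, GAA, MAN2B1, MANBA, FUCA1 and NEU1) were followed in dog kidney cells grown as cysts or as flat sheets. The members were all probe sets whose annotation named exactly 1 of these genes, which gave 16 probe sets for 9 of the 15115 genes measured. The cells were MDCK II tet-off cells, from a long-established cell line of dog kidney tubule epithelium (Madin-Darby canine kidney), kept in G418. They were grown for 8 days either in 3-dimensional type I collagen, where they formed cysts (3D, 6 arrays), or in 2-dimensional type I collagen, where they formed flat sheets (2D, 6 arrays). Each array was hybridised with RNA pooled from 4 separate samples after the gel had been digested with collagenase, and 2D served as the control condition. The arrays of a group are called biological replicates, with nothing said of how the pools were drawn, so every SD and p here measures the spread between pools. The 9 genes were selected on their log2(intensity + 1) in 3D against 2D, led by the value of CTBS, together with their shared role in the lysosome, so these differences are given as a description and without a test.

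Lysosomal glycosidases are acid hydrolases that break down the sugar chains of glycoproteins, glycolipids and glycogen. Many remove 1 sugar at a time from the outer end of a chain, while others cut inside a chain or act at its inner end. Most of them are made in the endoplasmic reticulum, tagged with mannose 6-phosphate in the Golgi and carried to the lysosome by receptors for that tag. Inherited loss of one enzyme leaves its substrate to accumulate in the lysosome, as in Fabry disease (GLA), Pompe disease (GAA) and fucosidosis (FUCA1), the last also known in dogs. CTBS, di-N-acetylchitobiase, is known from the human and rat enzymes to split the innermost pair of N-acetylglucosamine residues of an N-linked glycan once the bond to asparagine has been cut by AGA.

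CTBS stood far above the other members in its difference between cultures. Values are log2(intensity + 1), and probe sets of a gene are numbered by their mean over all arrays. Probe set 1 of CTBS read 8.67, 8.55, 8.78, 8.81, 9.02 and 8.93 in 3D replicates 1 to 6, against 5.46, 6.60, 5.41, 5.43, 6.04 and 5.95 in 2D replicates 1 to 6. All 3D values lay above all 2D values, and within 2D the replicates 2, 5 and 6 were the high ones. The means were 8.79 ± 0.17 in 3D and 5.82 ± 0.47 in 2D (SD, n = 6 arrays each), a log2 difference of 2.98 (SE 0.17), or 7.87-fold. Over all 15115 genes, 50 (0.331%) were at least 4-fold higher in 3D.

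Probe set 2 of CTBS gave a smaller difference of the same direction. It read between 7.72 and 7.95 in 3D (median 7.74) and between 5.57 and 6.00 in 2D (median 5.76). The groups did not overlap, and the log2 difference was 2.01 (SE 0.08), or 4.04-fold. In 2D both probe sets were near the signal of control probe sets that match no dog gene, taken as the 95th percentile of 59 such probe sets on each array. Probe set 1 was above that level on 6 of 6 arrays in 3D and on 3 of 6 in 2D, and probe set 2 on 6 of 6 in 3D and on 2 of 6 in 2D. Since part of the 2D values lay at that level, and 1 was added before taking logarithms, both folds may understate the difference in transcript. In pooled RNA a larger share of cells making CTBS and more CTBS transcript per cell cannot be told apart.

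**Figure D1:**
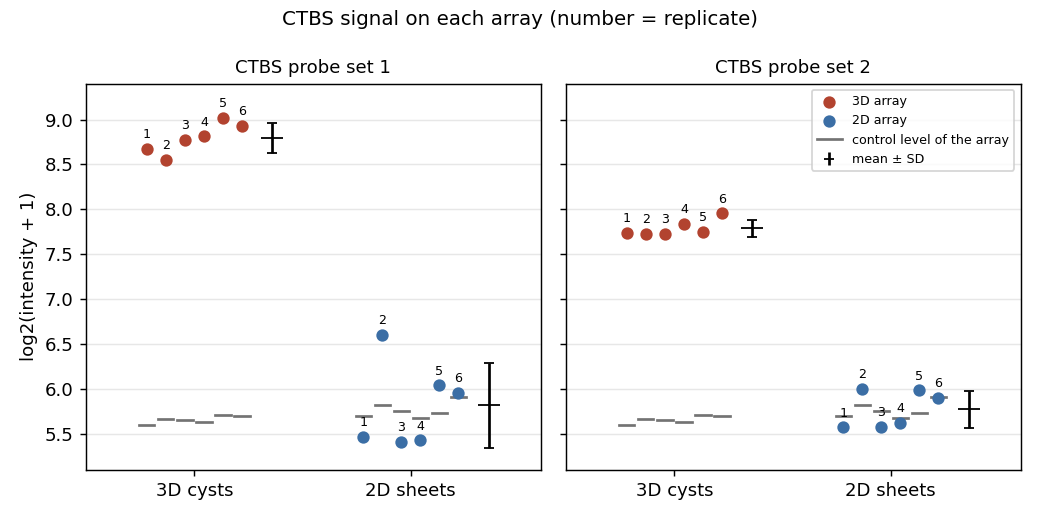
CTBS signal as log2(intensity + 1) on the y axis for each of 6 3D and 6 2D arrays, in 1 panel per probe set, with the replicate number at each point, the group mean ± SD as a black bar and the control level of each array as a grey tick. All 3D points lie above all 2D points in both panels, and the 2D points of replicates 1, 3 and 4 lie below the control level. For probe set 2 the 2D point of replicate 6 also lies just below it.

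The probe sets of CTBS were compared across arrays within each group, which does not use the difference between cultures. In 2D Pearson's r was 0.921 (exact permutation p = 0.00556, adjusted p = 0.0778 over the 14 such relations computed, n = 6) and Spearman's rho was 0.829 (exact permutation p = 0.0583, adjusted p = 0.564). Without the 2 arrays farthest from the median r was 0.984. In 3D r was 0.475 (exact permutation p = 0.315, adjusted p = 0.692, n = 6) and rho 0.657 (exact permutation p = 0.175, adjusted p = 0.564), with r of 0.893 without the 2 farthest arrays. None of the 14 relations passed after adjustment. For the other 6 genes with a pair of probe sets r lay between -0.861 and 0.638. The lowest was GLB1 in 3D (exact permutation p = 0.0444, adjusted p = 0.285), with rho of -0.771 (exact permutation p = 0.103, adjusted p = 0.564), and its r was -0.367 without the 2 farthest arrays, so it rested on those arrays.

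Among the enzymes that dismantle glycoprotein glycans, FUCA1 was the other gene whose groups did not overlap. FUCA1, which removes fucose, read between 12.23 and 12.51 in 3D (median 12.45) and between 11.99 and 12.15 in 2D (median 12.08). All 3D arrays were higher, by a log2 difference of 0.35 (SE 0.05), or 1.27-fold. Replicate 2 was the lowest of the 3D arrays and replicate 3 the highest of the 2D arrays.

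MAN2B1, the lysosomal alpha-mannosidase, was measured by a pair of probe sets. Probe set 1 read between 9.72 and 9.88 in 3D (median 9.83) and between 9.38 and 9.74 in 2D (median 9.52), a log2 difference of 0.28 (SE 0.06). The groups overlapped in a narrow range, through the high value of 2D replicate 5. Probe set 2 gave 0.35 (SE 0.10), and there 3D replicate 2 read 8.23, within the 2D range of 8.18 to 8.56.

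MANBA, the beta-mannosidase that releases the last mannose, was the 1 member with a lower mean in 3D that kept this sign under all 22 alternatives tried. Its single probe set read between 7.83 and 8.37 in 3D (median 8.20) and between 8.18 and 8.58 in 2D (median 8.33). The groups overlapped between 8.18 and 8.37. The log2 difference was -0.17 (SE 0.09), or -0.09 without 3D replicate 2 and -0.27 with quantile normalization.

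NEU1, the sialidase that takes off terminal sialic acid, differed little and in no settled direction. Probe set 1 averaged 8.89 ± 0.08 in 3D and 8.83 ± 0.15 in 2D (SD, n = 6 arrays each), a log2 difference of 0.06 (SE 0.07). Probe set 2 read 8.62 to 8.79 in 3D, against 8.66 to 8.93 in 2D, a difference of -0.12 (SE 0.06). The groups overlapped for both, and the sign of probe set 1 turned with quantile normalization (-0.04). It also turned with the mean of both probe sets (-0.03).

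The enzymes of glycolipid breakdown differed among themselves. GLA, alpha-galactosidase A, which acts on globosides, was higher in 3D by both of its probe sets but by unlike amounts. Probe set 1 read between 8.41 and 8.78 in 3D (median 8.52) and between 8.12 and 8.47 in 2D (median 8.20), a log2 difference of 0.29 (SE 0.08) with groups that overlapped slightly. Probe set 2 read between 6.80 and 7.30 in 3D (median 7.14) and between 6.03 and 6.54 in 2D (median 6.42), a difference of 0.75 (SE 0.09), or 1.68-fold, without overlap. The mean of the pair gave 0.52, against 0.29 for the brighter probe set alone, which gave 0.18 with quantile normalization.

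GLB1, the beta-galactosidase that acts on gangliosides and works in a complex with NEU1 and CTSA, differed by less. Probe set 1 read between 9.54 and 9.71 in 3D (median 9.60) and between 9.38 and 9.57 in 2D (median 9.52), a log2 difference of 0.12 (SE 0.05). Probe set 2 gave 0.22 (SE 0.08). The groups overlapped for both, and the difference of probe set 1 was 0.04 with quantile normalization.

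HEXA, the alpha subunit of beta-hexosaminidase, showed the smallest difference of the 9 genes by their brightest probe set. Probe set 1 read between 8.56 and 8.68 in 3D (median 8.67) and between 8.48 and 8.72 in 2D (median 8.61), so the 3D values lay inside the 2D range, and the log2 difference was 0.04 (SE 0.05). It was -0.07 with quantile normalization and -0.06 as the mean of both probe sets. Probe set 2 gave -0.15 (SE 0.08) but was above the control level on only 1 of 6 arrays in 3D and 2 of 6 in 2D.

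GAA, the acid alpha-glucosidase that breaks down glycogen, was modestly higher in 3D. Probe set 1 read between 8.54 and 8.88 in 3D (median 8.76) and between 8.26 and 8.66 in 2D (median 8.50), a log2 difference of 0.26 (SE 0.07). The overlap came from 3D replicate 6, which was low, and 2D replicate 4, which was high. With quantile normalization the difference of probe set 1 was 0.16. Probe set 2 read 6.47 to 6.78 in 3D, against 6.09 to 6.46 in 2D, a difference of 0.31 (SE 0.07) without overlap.

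Counted over the 9 genes by their brightest probe set, 2 were higher in 3D without overlap, 0 were lower without overlap and 7 overlapped. Over all genes, 13.2% were higher in 3D without overlap and 9.49% were lower. Of the 16 probe sets, 5 were higher without overlap, where 10.1% of all 42860 probe sets were, and 0 were lower, where 8.63% of all were. The median log2 difference was 0.26 over the members and -0.05 over all genes. Since this difference took part in choosing the members, nothing further is read from these shares. By sign alone, 6 members (CTBS, GLA, GLB1, GAA, MAN2B1 and FUCA1) were higher in 3D under every alternative tried, 1 (MANBA) was lower under every one, and 2 (HEXA and NEU1) took both signs. The 9 genes lie on 9 different chromosomes in the RefSeq annotation of dog assembly UU_Cfam_GSD_1.0, so no pair of them are neighbours.

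**Figure D2:**
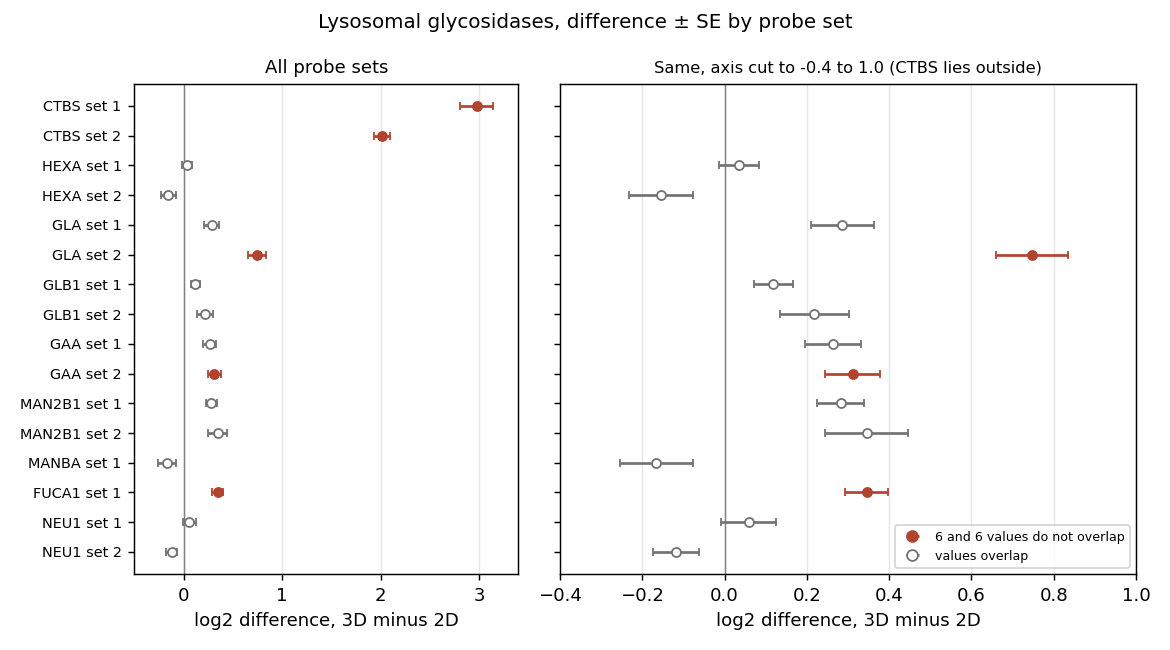
Log2 difference, 3D minus 2D, on the x axis for each of the 16 probe sets of the 9 genes, with bars of 1 SE. Red filled points have 6 and 6 values that do not overlap and open grey points have values that do. The left panel shows CTBS at 2.98 and 2.01, and the right panel, cut to a narrower axis, shows the other members between -0.17 and 0.75.

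Spread within a group was uneven among members and arrays. The pooled within-group SD was 0.36 for CTBS probe set 1, against a median of 0.11 over all probe sets, and 0.07 for GLB1 probe set 1 and HEXA probe set 1. Of the 12 arrays, 3D replicate 2 and 2D replicate 6 lay farthest out on the second principal component, which held 9.49% of the variance over all probe sets. Of the 16 member probe sets, 7 had their lowest 3D value on 3D replicate 2 and 4 had their highest there. That array was 0.49 below the 3D mean for MAN2B1 probe set 2, 0.40 below for GLB1 probe set 2 and 0.36 below for MANBA. It was 0.24 above the 3D mean for GLA probe set 1 and 0.31 below for GLA probe set 2.

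With these arrays left out the log2 differences were 3.05 (SE 0.18) and 2.05 (SE 0.09) for the probe sets of CTBS, 0.37 (SE 0.04) for FUCA1 and -0.13 (SE 0.07) for MANBA. For GLA they were 0.28 and 0.84, for MAN2B1 0.29 and 0.48, and for GAA 0.19 and 0.27. Correlations across the 12 arrays, after the group means were removed, used only the brightest probe set of each gene. By these, MANBA followed NEU1 (r = 0.782) and FUCA1 (r = 0.772), while GLA went against FUCA1 (r = -0.777) and MANBA (r = -0.760). On 3D replicate 2, GLA probe set 1 lay 0.24 above the 3D mean and GLA probe set 2 lay 0.31 below it. There MANBA lay 0.36, FUCA1 0.20 and NEU1 probe set 1 0.11 below the 3D mean, so each of these r rests in part on that array. No r without it was computed. Other probe sets were not used here and may go another way. These correlations are a description, and the points share array and RNA pool.

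**Figure D3:**
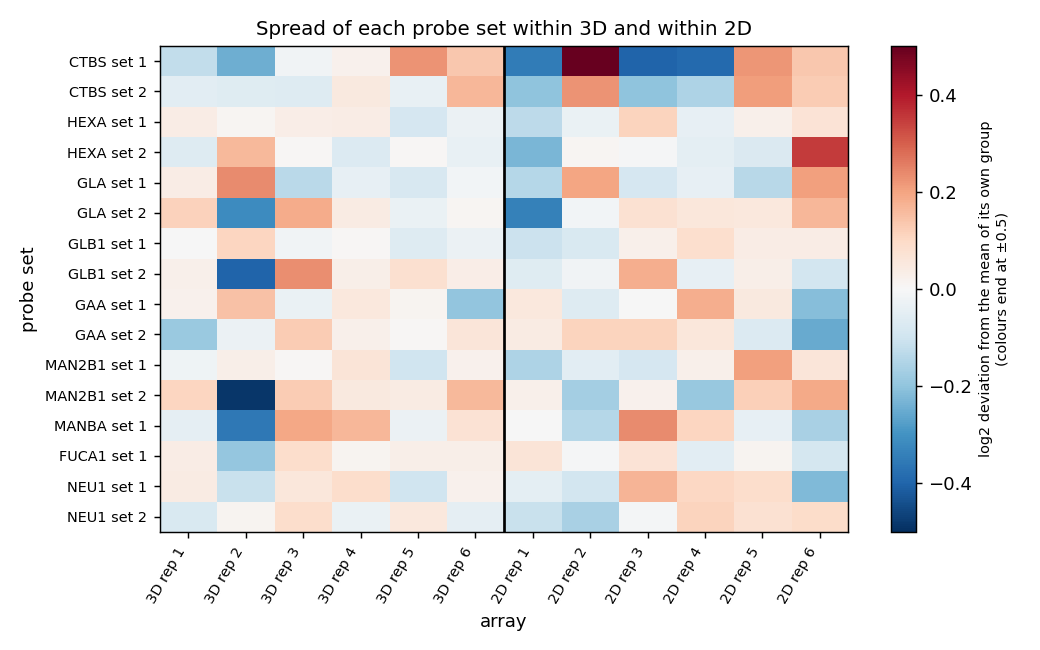
Deviation of each value from the mean of its own group, on the log2 scale, for the 16 probe sets in rows and the 12 arrays in columns, 3D left of 2D. Blue is below and red above the group mean, and colours end at ±0.5. The column of 3D replicate 2 holds deep blue cells for MAN2B1 set 2 and GLB1 set 2, and CTBS set 1 varies most in 2D.

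RNA quality moved with culture, as read from the array's actin and GAPDH controls, whose 5-prime probe sets lose signal against the 3-prime ones when RNA is degraded. Their mean log2 ratio (5-prime over 3-prime) averaged -0.54 ± 0.17 in 3D arrays and -0.91 ± 0.14 in 2D arrays (SD, n = 6 arrays each, exact permutation p = 0.00866 over 924 assignments). With this RNA control ratio as a covariate the log2 differences were 2.87 for CTBS, 0.42 for GLA, 0.41 for MAN2B1, 0.40 for GAA, 0.23 for GLB1, 0.18 for FUCA1, 0.04 for HEXA, -0.02 for NEU1 and -0.44 for MANBA. The value for CTBS changed little, that for FUCA1 came nearer to 0 and that for MANBA went farther below 0. The ratio was -0.88 on 3D replicate 2, within the 2D range of -1.09 to -0.75, and between -0.55 and -0.40 on the other 3D arrays. Without that array, and with no covariate, the log2 difference was 0.38 for FUCA1 and -0.09 for MANBA, shifts opposite to those with the covariate. Since the ratio itself differed between cultures, the fit with the covariate cannot well separate it from culture. The SE was larger in that fit, at 0.28 against 0.17 for CTBS and 0.08 against 0.05 for HEXA. A call can therefore be lost with little change in the difference. The part of RNA quality in these differences was not tested otherwise. Cell type markers are called raised or lowered in 3D at a limma adjusted p under 0.05, which 19.8% and 22.9% of all genes were. Of the epithelial markers, 5 of 6 were measured, and all 5 lay above the control level on every array. Their summed signal on the linear scale ranged over 29725 to 31115 in 3D and 24217 to 27756 in 2D, without overlap, with 3 raised (CDH1 by 1.02, KRT8 by 0.64 and KRT18 by 0.18) and 0 lowered. With the RNA control ratio as a covariate the calls of CDH1 (log2 difference 0.15, limma adjusted p = 0.576) and KRT18 (0.20, limma adjusted p = 0.0582) were lost. On the linear scale the summed signal of 9 macrophage and leukocyte markers ranged over 642 to 714 in 3D and 645 to 762 in 2D, with 1 marker raised and 4 lowered. All 4 lowered calls were lost with the covariate, for PTPRC, ITGAM, MRC1 and TYROBP (limma adjusted p = 0.703, 0.526, 0.0942 and 0.0666). That of TYROBP was lost in 13 of its 21 alternatives. CD163 was not above the control level on any array, while CD14 rose in 3D (log2 difference 0.43, SE 0.06, limma adjusted p = 3.84e-05). Summed fibroblast markers (7 genes, 0 raised and 2 lowered) ranged over 375 to 420 in 3D and 403 to 474 in 2D, with COL1A2 below the control level on every array. Summed endothelial markers (4 genes, 0 raised and 2 lowered) ranged over 304 to 340 in 3D and 336 to 374 in 2D, with PECAM1 below it on every array. The lowered calls of COL1A1 and DCN among the fibroblast markers (limma adjusted p = 0.174 and 0.118) and of PECAM1 and KDR among the endothelial ones (limma adjusted p = 0.139 and 0.16) were also lost with the covariate. The part of other cells in the differences was not tested.

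Other glycosidases of the lysosome are not members, and their differences were tested. Of 8 measured genes of this list, 4 rose and 2 fell in 3D (limma, adjusted p under 0.05 over all probe sets), where 19.8% of all genes rose and 22.9% fell. HYAL1, a lysosomal hyaluronidase, read 10.10 to 10.36 in 3D, against 8.32 to 8.70 in 2D. It rose by a log2 difference of 1.76 (SE 0.06, limma adjusted p = 6.46e-12), and all 3D values lay above all 2D values. All 3 of its probe sets rose, by 1.76, 1.43 and 0.42, where 38.7% of all probe sets were called in either direction. GUSB, the beta-glucuronidase, rose by 0.29 (SE 0.05, limma adjusted p = 0.000369). HPSE, heparanase, which was above the control level on 2 of 6 arrays in 2D, rose by 0.31 (limma adjusted p = 0.00312). With the RNA control ratio as a covariate the difference of HPSE was 0.27 and its call was lost (limma adjusted p = 0.127). The median of the list was 0.13.

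Partners of the members were mixed in direction. Of 12 measured partners, activators and other glycan hydrolases, 4 rose and 3 fell, where 19.8% and 22.9% of all genes did. The median was 0.04. GM2A, the activator that presents ganglioside to HEXA, read 10.54 to 10.67 in 3D, against 9.68 to 9.94 in 2D, and rose by 0.83 (SE 0.05, limma adjusted p = 3.29e-09). Its other probe set rose by 0.82. IDS, a sulfatase of heparan and dermatan sulfate, rose by 0.59 (limma adjusted p = 6.25e-07), and HGSNAT, the acetyltransferase of heparan sulfate breakdown, by 0.44 (limma adjusted p = 1.12e-05). Of the 3 probe sets of HGSNAT, 2 were called as higher, and the other gave 0.09 (limma adjusted p = 0.11).

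AGA, the amidase that acts just before CTBS as known from the human and rat enzymes, went the other way. It read 9.01 to 9.30 in 3D, against 9.45 to 9.53 in 2D, and fell by 0.39 (SE 0.05, limma adjusted p = 1.43e-05) without overlap. Its other probe set fell by 0.24 (limma adjusted p = 0.0267). CTSA, which protects GLB1 and NEU1 in their complex, fell by 0.17 (limma adjusted p = 0.0128). All 3 of its probe sets fell. With the RNA control ratio as a covariate the difference of CTSA was as large (-0.18) but its call was lost (limma adjusted p = 0.154).

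Genes that deliver enzymes to the lysosome gave 2 raised and 3 lowered of 9, against 19.8% and 22.9% of all genes. The median was -0.08. GGA2, an adaptor that packs mannose 6-phosphate receptors at the Golgi, fell by 0.92 (SE 0.07, limma adjusted p = 1.94e-08), with 3D values of 9.73 to 10.14 and 2D values of 10.71 to 10.91. All 3 of its probe sets fell. The receptors moved apart: M6PR, the cation-dependent receptor, fell by 0.30 (limma adjusted p = 3.30e-05), and IGF2R, the cation-independent one, rose by 0.19 (limma adjusted p = 0.00479). GNPTG, a subunit of the enzyme that adds the tag, fell by 0.24 (limma adjusted p = 0.0012). Its difference was -0.20 with the RNA control ratio as a covariate, where the call was lost (limma adjusted p = 0.0898).

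Lysosomal membrane proteins had 2 raised and 4 lowered of 12, against 19.8% and 22.9% of all genes. The median was -0.09. NPC1, a cholesterol exporter, rose by 0.51 (limma adjusted p = 2.80e-06), though 1 of its 3 probe sets did not (log2 difference 0.02). MCOLN1, a calcium channel, fell by 0.55 (limma adjusted p = 0.00804). The abundant membrane proteins LAMP2 and LAMP1 fell by 0.20 and 0.14 (limma adjusted p = 0.00146 and 0.0168). With the RNA control ratio as a covariate all 3 of these calls were lost. The difference of MCOLN1 was then much smaller, at -0.19 (limma adjusted p = 0.623), while LAMP2 had -0.15 (limma adjusted p = 0.137) and LAMP1 -0.13 (limma adjusted p = 0.246). The call of LAMP1 was also lost with centring on the array median (log2 difference -0.12, limma adjusted p = 0.0594).

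Transcription factors of lysosomal genes and their regulators had 3 raised and 4 lowered of 15, against 19.8% and 22.9% of all genes. The median was -0.04. TFEB, the best known activator of lysosomal genes, had a log2 difference of -0.03 (SE 0.07, limma adjusted p = 0.733), and TFE3 of 0.13 (SE 0.06, limma adjusted p = 0.0965). The other probe set of TFE3 fell by 0.20 (limma adjusted p = 0.0184). MITF, of the same family, rose by 0.25 (limma adjusted p = 0.012). The difference of MITF was 0.21 with the RNA control ratio as a covariate, where the call was lost (limma adjusted p = 0.27). FLCN, folliculin, which acts with the Rag GTPases, fell by 0.41 (limma adjusted p = 1.16e-05), with 2 of its 4 probe sets called as lower. The Rag GTPase RRAGA rose by 0.30 (limma adjusted p = 0.000127).

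Glycosidases that work outside the lysosome were set beside the members as well. Of 15 measured, 6 rose and 3 fell, against 19.8% and 22.9% of all genes. The median was 0.11. MAN1A1, a Golgi mannosidase, rose by 1.20 (SE 0.05, limma adjusted p = 1.05e-10), and all 5 of its probe sets rose. MAN2A1, the Golgi mannosidase that acts later, rose by 0.56 (limma adjusted p = 2.13e-06), and MAN1C1 fell by 0.62 (limma adjusted p = 3.91e-06). Over the 6 lists together 21 genes rose and 19 fell of 71 measured, with a median of -0.01, where 42.7% of all genes were called in either direction.

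**Figure D4:**
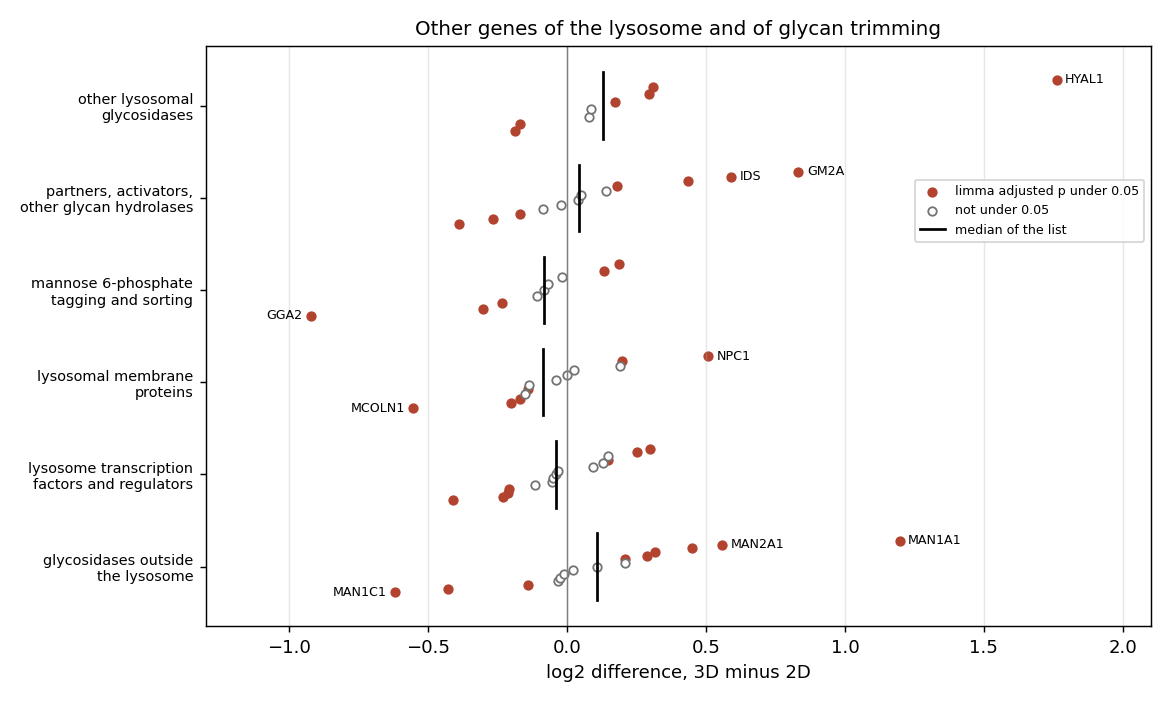
Log2 difference, 3D minus 2D, on the x axis for 71 genes of 6 lists, 1 point per gene. Red points have a limma adjusted p under 0.05, open points do not, and the black line is the median of the list. HYAL1 at 1.76 and MAN1A1 at 1.20 lie farthest to the right, and GGA2 at -0.92 farthest to the left.

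The genes on either side of CTBS did not share the size of its difference. In the RefSeq annotation SPATA1 overlaps CTBS, and it rose by 0.54 (SE 0.07, limma adjusted p = 1.01e-05). Its 3D values were 7.04 to 7.38 and its 2D values 6.44 to 6.79. Its other probe set rose by 0.59. Both probe sets are annotated to SPATA1 alone, but whether they also take up CTBS transcript was not tested. The nearest measured gene on the other side, SSX2IP, had a log2 difference of -0.08 (SE 0.07, limma adjusted p = 0.347), but -0.15 without 2D replicate 6 (limma adjusted p = 0.0193). Over its 22 alternatives the adjusted p of SSX2IP by limma lay between 0.0193 and 0.603. RPF1, the next measured gene beyond SPATA1, had -0.14 (SE 0.06, limma adjusted p = 0.0579). It passed under 6 of 22 alternatives, among them without 2D replicate 1 (limma adjusted p = 0.014), with adjusted p between 0.00883 and 0.88 over them. Farther out MCOLN3 rose by 0.41 (limma adjusted p = 0.00105) and LPAR3 fell by 0.37 (limma adjusted p = 0.00877), both calls lost with the RNA control ratio as a covariate, where MCOLN3 had 0.19 (limma adjusted p = 0.3) and LPAR3 -0.25 (limma adjusted p = 0.335).

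**Figure D5:**
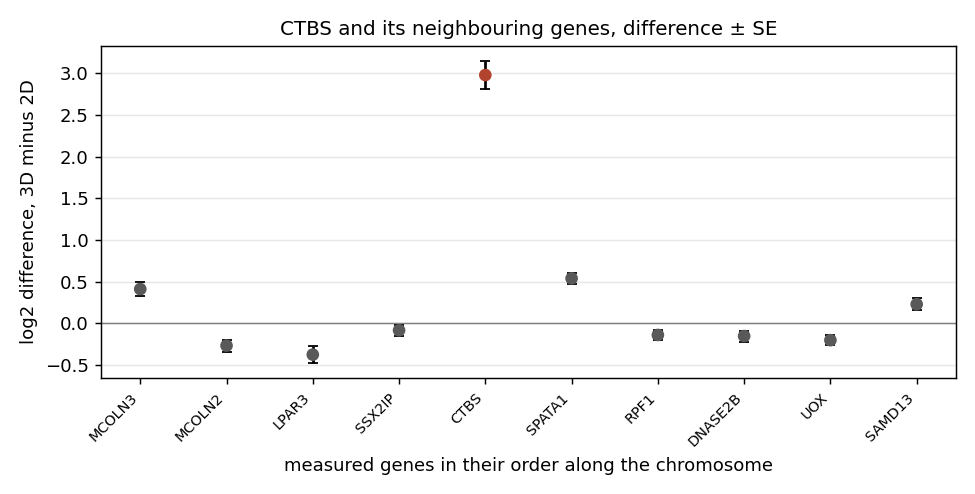
Log2 difference, 3D minus 2D, on the y axis with bars of 1 SE, for CTBS in red and the measured genes among the 6 annotated protein-coding genes on each side, in their order along the chromosome. CTBS lies at 2.98 and its neighbours between -0.37 and 0.54.

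The genes whose profile was most like that of CTBS were found by Pearson's correlation over the 12 arrays, as a description. Genes with placeholder symbols were left out of this ranking. MED28 came first (r = 0.997), followed by IGFBP6, AGR2, S100A2 and TIMP1 (r = 0.996, 0.996, 0.996 and 0.995). Their log2 differences were unlike in size, from 0.33 for MED28 to 3.58 for S100A2, and a correlation over both groups mostly records the step between them. After the group means were removed r lay between 0.879 and 0.934 for these 5 genes. Since they were picked by r over these same 12 arrays, a high value here was partly fixed by that choice. S100A2 read 8.80 on 2D replicate 2 and between 7.54 and 8.21 on the other 2D arrays, and TIMP1 read 9.37 there and between 8.56 and 8.98 on the others. As for CTBS, 2D replicate 2 was the highest 2D array for all 5, which the choice by r also favours.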

How the data were processed

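Per the submitters' processing notes, the authors made the deposited intensity values with GCRMA, on a linear scale with 1 per probe set and array. Among its steps, GCRMA corrects probe background by base content and combines the probes of a probe set into 1 value. For GCRMA no version is given in the sources used here. The file held 43035 probe sets, and 175 control and reporter probe sets were left out, which left 42860. No filter on low values and no further normalization were applied, and log2(intensity + 1) was used, so differences of dim genes are understated. Array medians ran between 89.9 and 93.7 intensity units, and precision is limited by having 6 arrays a group. Genes were named from the platform annotation (29254 probe sets with 1 gene, 439 with several and 13167 with none). Identifiers of 27680 were found in the RefSeq genes of UU_Cfam_GSD_1.0, which changed 0 symbols. The probe set of highest mean stood for a gene, and all probe sets of a member are given. Of the 16 member probe sets, 8 carry the suffix _s_at or _x_at and can hybridise with related transcripts.

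The label of each array gave its group, and limma 3.58.1 (R 4.3.3; lmFit, then eBayes) was used with group as the only term and Benjamini-Hochberg adjustment over all 42860 probe sets at 0.05. The calculation was tested on simulated data. Single values were compared with exact permutation tests over 924 assignments. Genes named outside the members were, in each list, the 3 with the largest difference among those that passed. To these came 8 fixed by name (CTSA, GM2A, AGA, TFEB, TFE3, LAMP1, IGF2R and M6PR), and the 5 most like CTBS, placeholder symbols left out. Some items are not reported here. The cell type markers and the genes around CTBS were named after their values were seen. The members, lists and tests were chosen with earlier results of these data known. Alternatives were a filter, other normalizations, a pseudocount of 16, other variance settings, the replicate number as a block, the mean of probe sets, a covariate and leaving out arrays. Plots come from matplotlib 3.10.9 (Python 3.11.15).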

Additional observations from a re-analysis of the deposited data

Results flagged for a closer look

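Of the 32 groups of 6 arrays checked, 1 for each member probe set and culture, 5 held a value far from the others by Dixon's ratio, the gap to the nearest value divided by the range of the group. The ratio was above its 95% critical value in these 5, and chance flags about 1 in 20. On 3D replicate 2, MAN2B1 probe set 2 read 8.23 against 8.76 to 8.88 on the other 3D arrays (ratio 0.815) and FUCA1 read 12.23 against 12.44 to 12.51 (ratio 0.739). On the same array GLB1 probe set 2 read 7.17 against 7.59 to 7.80 (ratio 0.673), and HEXA probe set 2 read 5.75 against 5.52 to 5.60 (ratio 0.666), which is near the control level. The other was GLA probe set 2 on 2D replicate 1, with 6.03 against 6.36 to 6.54 on the other 2D arrays (ratio 0.646). Probe sets that share an array are not independent.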

How the results depend on the processing

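Over 22 alternatives, CTBS had a log2 difference between 2.50 (mean of its probe sets) and 3.13 (without 2D replicate 2). The median over the members was 0.26, but 0.16 with quantile normalization and 0.19 when 3D replicate 2 and 2D replicate 6 were both left out, an alternative chosen after seeing the data. It lay between 0.22 and 0.28 without any 1 array. The covariate for the RNA control ratio left 3167 genes called, against 6454, and 22 of the 71 genes of the lists, against 40. The cause was not tested. The ratio differed between cultures, so this fit also gave larger SEs, and a lost call need not mean a smaller difference. Leaving out 1 array gave 5507 to 7140 genes and 38 to 42 genes of the lists. Of the 40 called genes of the lists, 17 kept their call in every alternative that tested them. The labels number the arrays but do not say whether arrays of the same number were paired. Same-numbered arrays correlated between 0.000101 and 0.361 after the group means were removed. Of the 6 3D arrays, 1 was closest to the 2D array of its own number. These values do not settle whether the arrays were paired. With the replicate number as a block 6600 genes and 40 genes of the lists were called, and the median over the members was 0.26. Signal near the control level limits CTBS in 2D and HEXA probe set 2.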
